A study of Mus musculus with 2 samples.

Results

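The genes described here are the enzymes of drug, steroid and foreign compound metabolism in 4 mouse families: the cytochromes P450 (Cyp), the UDP-glucuronosyltransferases (Ugt), the sulfotransferases (Sult) and the glutathione S-transferases (Gst). They were chosen by gene symbol alone. The symbol had to begin with Cyp, a number and a letter, with Ugt1, Ugt2 or Ugt3, with Sult and a number, or with Gst, a letter and a number. A total of 173 entries of 162 gene symbols met this rule, of 24165 RefSeq entries of 20128 symbols in the table. They comprised 108 Cyp, 20 Ugt, 22 Sult and 23 Gst entries.

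Transcription was measured by global run-on sequencing (GRO-seq) in C2C12, an established mouse myoblast line whose cells can fuse into muscle fibres. In GRO-seq, polymerases already engaged on DNA in isolated nuclei extend their transcripts with a bromouridine label, and the labelled RNA is captured and sequenced, so that each read marks a polymerase in the act of transcribing. The 2 libraries came from untreated cells at 80% confluency, with 4 plates of 10 cm pooled for each isolation of nuclei, and there was no treated or differentiated group. The authors pooled both libraries and gave each entry a single activity in RPKmM, which is reads on the sense strand of the gene body per mappable kilobase after scaling for sequencing depth, or the word Inactive where the signal did not pass their significance threshold against the background of gene deserts. With 1 value per entry there is no spread between replicates, so the values below are descriptions without a test, and the depth of each library is unknown from the table. RPKmM is scaled to length, so activities of different genes were set side by side on that scale.

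Cytochromes P450 are haem enzymes that insert oxygen into drugs, fatty acids, steroids and vitamins, and in the membrane of the endoplasmic reticulum they draw electrons from a shared reductase. The Ugt, Sult and Gst enzymes then join glucuronic acid, sulfate or glutathione to such molecules, which makes them easier to excrete. Many of these genes are best known from liver, gut, kidney and steroid-producing glands, and many lie in clusters of close copies that arose by gene duplication.

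Most of these genes were not called active in myoblasts, and most of the active ones lay below the median level of active genes, with Gstp1, Cyp1b1, Cyp20a1, Gsta4 and Gstm1 above it. Of the 173 entries, 117 (67.6%) were Inactive, against 29.8% of all 24165 entries. The other 56 (32.4%) were active, against 70.2% of all entries. Counted by symbol, 110 of 162 had no active entry, against 31.3% of all symbols. Keratin genes, another large family of restricted expression, had 48 of 58 entries Inactive (82.8%).

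The share ranged from 17.4% to 90.9% across the 4 families. Sult entries had the highest share, with 20 of 22 (90.9%), followed by Cyp with 81 of 108 (75.0%) and Ugt with 12 of 20 (60.0%). The place of Ugt in this order rests on the 8 nested Ugt1a entries, which share sequence, and without them 12 of 12 Ugt entries were Inactive (100%). Gst entries had the lowest share, with 4 of 23 Inactive (17.4%), below the 29.8% of all entries. This direction rests on entries of very low activity. With active entries below 0.05 counted as Inactive, the Gst share was 52.2%, above the 39.7% of all entries. Members of a family share sequence and often a locus, so that entries within a family are not independent of each other.

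**Figure D1:**
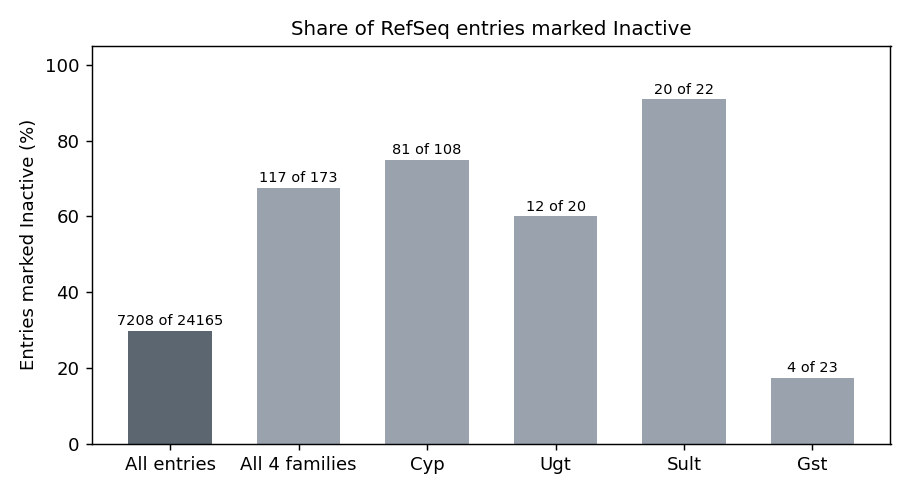
Bars show the percentage of RefSeq entries marked Inactive in all entries, in the 4 families together and in each family, with the count above each bar. The share was 90.9% in Sult, 75.0% in Cyp, 60.0% in Ugt and 17.4% in Gst, against 29.8% of all entries.

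Where these genes were active, the level was mostly low. The 56 active entries had a median activity of 0.075 RPKmM (quartiles 0.0175 and 0.22, range 0.01 to 11.71), whereas the median of all 16957 active entries was 0.87 (quartiles 0.22 and 1.99). Only 4 of the 173 entries reached an activity of 1, a level that 32.3% of all entries reached, and 27 reached 0.1, against 57.2% of all entries. Of the 56 active entries, 21 lay below 0.05, as did 14.0% of all active entries. At 0.01 or less, the lowest printed steps, were 14 active members (25.0%) and 6.99% of all active entries. The values are rounded to 2 decimals, so the members at 0.01 have no order among themselves.

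The 4 entries at an activity of 1 or more were Gstp1, Cyp1b1, Cyp20a1 and Gsta4. Gstm1 was the only other entry above the median of all active entries.

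**Figure D2:**
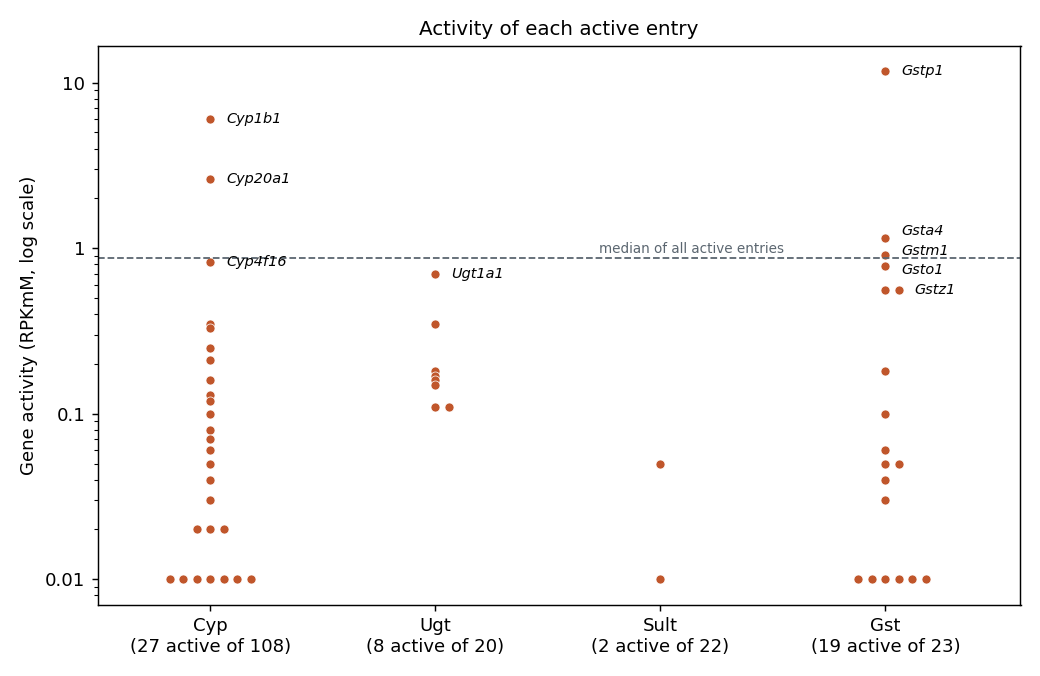
Each point is an active entry, with its gene activity in RPKmM on a log axis and its family along the other axis; Inactive entries have no value and are not drawn. The dashed line is the median of all active entries (0.87), and only Gstp1, Cyp1b1, Cyp20a1, Gsta4 and Gstm1 lie above it.

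Gstp1 was the most active, at 11.71 RPKmM, a level that 97.7% of all active entries lay below. It encodes the pi class glutathione transferase, a cytosolic enzyme, and lies on the minus strand at chr19:4035411-4037921 (mm9), a short gene of 2.511 kb. Its coding sequence is 98.1% identical to that of Gstp2. The authors kept uniquely mapped reads only, so reads common to such copies were lost, and the value of Gstp1 is uncertain to that extent. Cyp1b1 followed at 6.04 RPKmM, above 94.2% of all active entries. It encodes a P450 found mainly outside the liver that oxidises oestrogens and polycyclic hydrocarbons, and it lies on the minus strand at chr17:80106234-80114401.

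Cyp20a1, a P450 with no established substrate, had an activity of 2.61 RPKmM, above 81.7% of all active entries, and lies at chr1:60400167-60444904 on the plus strand. Gsta4, an alpha class transferase that conjugates hydroxynonenal, a product of lipid peroxidation, had 1.15 RPKmM, above 58.2% of active entries, and lies on the plus strand at chr9:78039773-78057155. Gstm1 of the mu class came next at 0.91 RPKmM, just above the median of all active entries. Most other members were well below that level.

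The 120 bases upstream of the annotated start (GENCODE vM1, mm9) are printed for the 4 most active genes, 5′ to 3′ on the gene's own strand, so that places where C is followed by G can be seen. CG dinucleotides are in capitals. The stretches are chr19:4037922-4038041 for Gstp1 (minus strand, 13 CG), chr17:80114402-80114521 for Cyp1b1 (minus strand, 7 CG), chr1:60400047-60400166 for Cyp20a1 (plus strand, 12 CG) and chr9:78039653-78039772 for Gsta4 (plus strand, 5 CG).
Gstp1: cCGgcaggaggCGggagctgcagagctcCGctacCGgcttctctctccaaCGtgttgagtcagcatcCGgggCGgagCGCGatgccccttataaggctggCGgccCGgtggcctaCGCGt
Cyp1b1: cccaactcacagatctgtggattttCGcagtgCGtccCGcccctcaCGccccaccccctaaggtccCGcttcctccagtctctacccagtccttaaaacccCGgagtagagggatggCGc
Cyp20a1: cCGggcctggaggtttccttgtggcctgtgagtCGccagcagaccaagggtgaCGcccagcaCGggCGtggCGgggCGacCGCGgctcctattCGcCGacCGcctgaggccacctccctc
Gsta4: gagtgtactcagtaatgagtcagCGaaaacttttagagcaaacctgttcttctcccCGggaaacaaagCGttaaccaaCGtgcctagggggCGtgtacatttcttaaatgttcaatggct

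The same window is printed for 4 Inactive members that serve as textbook liver enzymes and were picked as such, not as typical of all Inactive members. Other Inactive genes, such as Sult4a1, Cyp2r1 and Cyp24a1, had more CG around the start. They are Cyp2c29 at chr19:39315321-39315440 (plus strand, 0 CG), Cyp3a11 at chr5:146691541-146691660 (minus strand, 1 CG), Cyp2e1 at chr7:147949518-147949637 (plus strand, 0 CG) and Ugt2b5 at chr5:87569366-87569485 (minus strand, 0 CG).
Cyp2c29: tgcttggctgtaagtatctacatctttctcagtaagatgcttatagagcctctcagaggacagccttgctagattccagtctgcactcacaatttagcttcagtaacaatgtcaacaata
Cyp3a11: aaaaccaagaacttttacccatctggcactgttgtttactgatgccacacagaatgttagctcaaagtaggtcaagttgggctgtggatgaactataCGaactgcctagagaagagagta
Cyp2e1: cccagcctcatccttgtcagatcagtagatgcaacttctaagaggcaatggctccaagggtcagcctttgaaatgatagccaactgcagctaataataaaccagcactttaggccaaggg
Ugt2b5: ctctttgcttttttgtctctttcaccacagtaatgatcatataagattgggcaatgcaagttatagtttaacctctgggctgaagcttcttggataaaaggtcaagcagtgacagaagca

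Among P450 genes, the classical enzymes of drug metabolism in families 1 to 3, without Cyp2j, Cyp2u and Cyp2r, which are counted below with fatty acid and vitamin D enzymes, were Inactive in 46 of 57 entries (80.7%). They included Cyp1a2 and Cyp2e1, which act on caffeine and on ethanol, and Cyp3a11, the main mouse counterpart of the human drug-metabolising CYP3A4. In the Cyp2c subfamily 17 of 18 entries were Inactive, and the exception, Cyp2c55, was at 0.01 RPKmM. All 4 Cyp2a entries, 4 of 5 Cyp2b, 7 of 9 Cyp2d and 8 of 10 Cyp3a entries were Inactive as well.

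The other exceptions in this group, outside the Cyp1 family, were low. Cyp2d22 was at 0.16 RPKmM, Cyp3a13 at 0.1, Cyp2d26 at 0.04, and Cyp2b13, Cyp2ab1, Cyp2f2 and Cyp3a41b at 0.01. Cyp3a41b and the Inactive Cyp3a41a are 99.9% identical in coding sequence, and the likeness of their whole gene bodies was not measured. Reads common to both copies were not kept, and how far this bears on the difference between 0.01 and Inactive was not tested. Cyp2b13 is 92.5% identical in coding sequence to the Inactive Cyp2b9.

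The Cyp1 family held both a highly active and an Inactive gene. Its members are induced by the aryl hydrocarbon receptor (Ahr) in many cell types. Cyp1b1 stood at 6.04 RPKmM, while the 2 entries of Cyp1a1 were at 0.03 and 0.01, and Cyp1a2 was Inactive. Ahr itself was at 0.6 RPKmM, its partner Arnt at 2.11 and its repressor Ahrr at 0.04. The core of the site bound by the receptor, TNGCGTG on either strand, occurred 4 times in the 1000 bases upstream of Cyp1a1 and 2 times upstream of Cyp1b1, but 0 times upstream of Cyp1a2, and in 11 of 159 members in all (6.92%), against 14.1% of all gene symbols with such a window.

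P450 genes of fatty acid oxidation (Cyp4, Cyp2j and Cyp2u) were Inactive in 25 of 32 entries (78.1%). All 8 Cyp4a entries, the omega-hydroxylases of fatty acids that are known as targets of the receptor Ppara, were Inactive, and Ppara was at 0.02 RPKmM in both entries. The Cyp4f subfamily, which inactivates leukotrienes and other eicosanoids, was split, with 8 of 12 entries Inactive. Its active entries were Cyp4f16 at 0.82, Cyp4f13 at 0.35, Cyp4f17 at 0.25 and the pseudogene Cyp4f41-ps at 0.05. Cyp2u1 was at 0.21, Cyp4v3 at 0.13 and Cyp2j6, the only active member of 7 in its subfamily, at 0.06.

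Genes of steroid hormone synthesis were all Inactive, in 6 of 6 entries. These were Cyp11a1, which cleaves the side chain of cholesterol, Cyp17a1, Cyp21a1, Cyp11b1 and Cyp11b2 of the corticoid and sex steroid pathways, and Cyp19a1, the aromatase that makes oestrogens. Of the 5 entries for cholesterol and bile acid enzymes, Cyp7a1, the rate-limiting enzyme of bile acid synthesis, and Cyp7b1 were Inactive. The 3 others were active, Cyp39a1 at 0.33 RPKmM, Cyp46a1, the cholesterol hydroxylase best known from neurons, at 0.07, and Cyp27a1, a mitochondrial sterol hydroxylase, at 0.01.

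Enzymes of vitamin A and vitamin D metabolism were few. All 4 entries of the Cyp26 family, which degrades retinoic acid, were active, against 70.2% of all entries, though at low levels. Cyp26c1 was at 0.12 RPKmM, Cyp26a1 at 0.08, and both entries of Cyp26b1 at 0.02, under the level of 0.05 used above. Of the retinoic acid receptors, Rarg was at 4.91 and 6.74 in its 2 entries, Rara at 1.04 to 1.06, and Rarb at 0.03 and 0.02. Of the 3 vitamin D enzymes, Cyp2r1 and Cyp24a1 were Inactive and Cyp27b1, which makes the active hormone, was at 0.02, with the vitamin D receptor gene Vdr at 0.38.

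Of 60 subfamilies, 35 had a single entry. Of the 25 with more, 10 were Inactive in every entry, 5 were active in every entry and 10 held both. Of the 5 wholly active subfamilies 2, Cyp26b and Gstz, were several entries of 1 gene. The largest wholly Inactive subfamilies were Sult2a with 9 entries, Cyp4a with 8 and Ugt2b with 7.

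**Figure D3:**
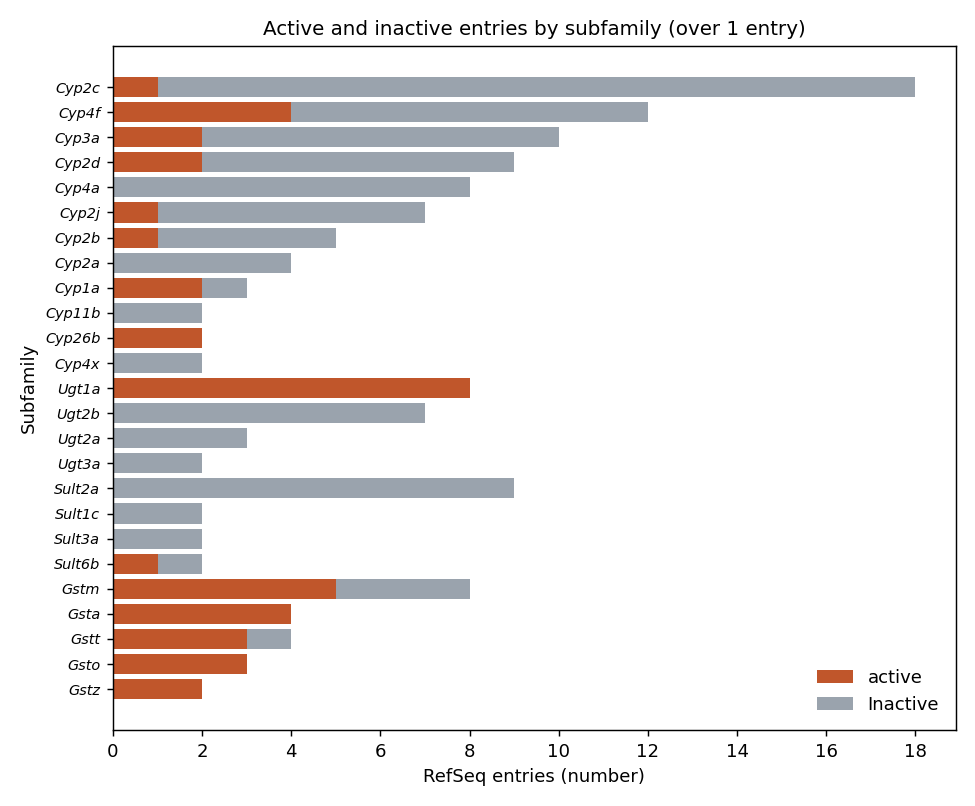
Bars show the number of RefSeq entries, active and Inactive, in each subfamily with more than 1 entry. Cyp4a (8 entries), Sult2a (9) and Ugt2b (7) were wholly Inactive, whereas Ugt1a (8 entries), Gsta (4) and Gsto (3) were wholly active.

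The sulfotransferases were Inactive almost throughout. Sult1a1, a phenol sulfotransferase, Sult1b1, Sult1e1, which sulfates oestrogens, Sult4a1, known from brain, and all 9 entries of Sult2a, the hydroxysteroid sulfotransferases of liver, were Inactive. The 2 active entries were Sult6b1 at 0.05 RPKmM and Sult2b1, which sulfates cholesterol, at 0.01. Genes that make the sulfate donor were active, with Papss1 at 1.19 and 1.18 in its 2 entries and Papss2 at 0.03 and 0.01.

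Of the glutathione transferases, 19 of 23 entries were active. Their median of active entries was 0.05 RPKmM, levels ran from 0.01 to 11.71, and 8 of the 19 lay below 0.05. In the alpha class Gsta4 was at 1.15, Gsta2 at 0.06, Gsta1 at 0.03 and Gsta3 at 0.01. Gsta1 and Gsta2 are 97.5% identical in coding sequence. Reads common to both copies were not kept, and how far this changed either value was not tested. In the mu class Gstm1 was at 0.91, Gstm5 at 0.18, Gstm2 at 0.1 and Gstm6 and Gstm7 at 0.01, while Gstm3 and both entries of Gstm4 were Inactive.

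The omega and zeta classes had entries active at intermediate levels. Gsto1, which also reduces dehydroascorbate, was at 0.78 RPKmM and Gsto2 at 0.05 in both entries. Gstz1, maleylacetoacetate isomerase of tyrosine breakdown, was at 0.56 in both entries. In the theta class Gstt2 was at 0.04, Gstt1 and Gstt3 at 0.01 and Gstt4 was Inactive, and Gstk1, the mitochondrial kappa enzyme, was at 0.01.

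All 10 symbols with several entries gave 1 answer. They had 21 entries, and 0 of the 10 symbols had both an active and an Inactive entry, 6 being Inactive in every entry and 4 active in every entry. How often this holds over all symbols with several entries was not counted. Of 5 noncoding entries 4 were Inactive, among them Cyp4x1os, an antisense transcript and no enzyme, and the active one was Cyp4f41-ps.

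The Ugt family was divided by locus. All 12 entries of Ugt2a, Ugt2b and Ugt3a were Inactive, including Ugt2b1 and Ugt2b5, and all 8 entries of Ugt1a were active at 0.11 to 0.7 RPKmM. Ugt1 is a single nested locus on chromosome 1 (plus strand, chr1:89951963-90116577), in which the genes begin at different first exons and all share the last exons. Ugt1a1, the gene nearest the shared end, conjugates bilirubin. A read is therefore counted in every entry whose gene body covers its position, whichever start the polymerase used.

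The activities were highest nearest the shared end, though they did not rise in strict order along the locus. The longest entry, Ugt1a10, was at 0.11 RPKmM over a gene body of 164 kb and Ugt1a9 at 0.11 over 148 kb. Ugt1a7c was at 0.15 over 124 kb, and Ugt1a6b and Ugt1a6a, which have the same annotated start, at 0.16 and 0.18 over 116 kb. Ugt1a5 was at 0.17 over 53.0 kb, Ugt1a2 at 0.35 over 18.4 kb and Ugt1a1 at 0.7 over 7.04 kb. The shortest and most downstream entry thus had the highest density.

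Activity multiplied by body length gives the depth-scaled number of reads (RPM) in each entry, if every base is mappable. The product was 16.3 to 20.8 for the 5 longest entries, 9.01 for Ugt1a5, 6.44 for Ugt1a2 and 4.93 for Ugt1a1. A nested entry cannot hold more reads than the entry around it, yet the product of Ugt1a6a was 116% of that of Ugt1a10, so these products are approximate. Ugt1a6a and Ugt1a6b also differed, at 20.8 and 18.5, although their bodies were taken as the same here. Mappable bases, rounding and differences between the deposited and the annotated positions were not tested as sources of these gaps. The last 4.29% of the longest body, the whole body of Ugt1a1, held 27.4% of its product. With each entry's own annotated end the Ugt1a1 body was 6.04 kb and the share 23.6%. Which of the starts the reads came from cannot be told apart from these values, so the 8 entries do not count as 8 separately active genes.

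**Figure D4:**
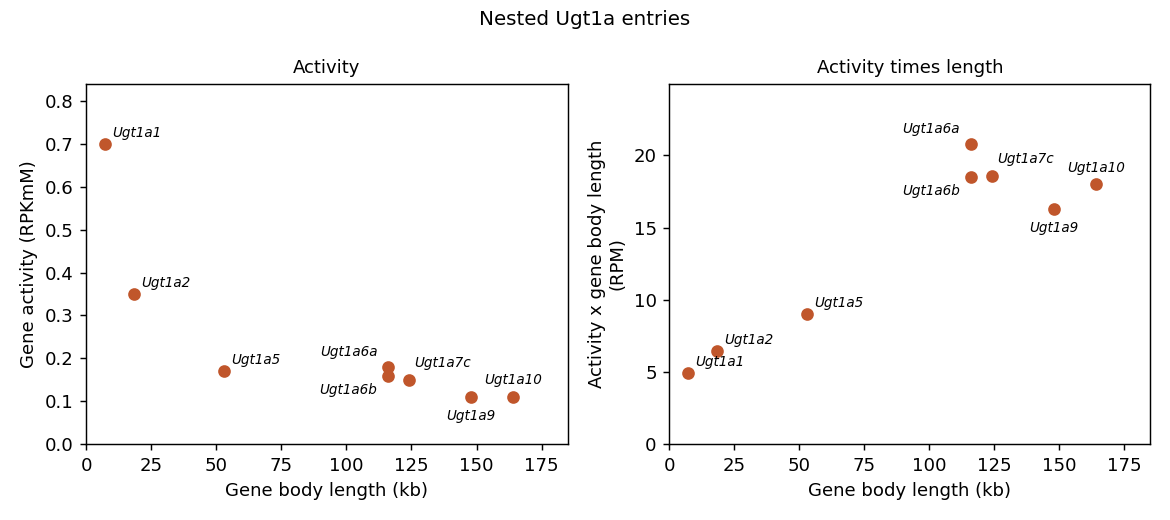
The 8 nested Ugt1a entries by gene body length in kb, with gene activity in RPKmM on the left and the product of activity and length, in RPM, on the right. Activity was highest in Ugt1a1, the shortest entry (0.7 over 7.04 kb), while the product was lowest there (4.93) and 16.3 to 20.8 in the 5 longest entries.

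Position along the chromosome was examined for the 159 symbols found in the annotation, by joining genes of a family that lay within 200 kb of each other. Of 99 symbols in 12 clusters of 5 or more, 77 were Inactive (77.8%). The 22 active ones include the 8 nested Ugt1a symbols, which do not count as 8 separately active genes. Of 33 symbols that lay alone, 16 were Inactive (48.5%), and of 27 in clusters of 2 to 4, 14 (51.9%), against 31.3% of all symbols. For Cyp the counts were 58 of 67 symbols in large clusters (86.6%), 4 of 9 in small clusters (44.4%) and 12 of 23 lying alone (52.2%). For Ugt the counts were 9 of 17 in large clusters (52.9%) and 2 of 2 in a small one. All 8 active Ugt symbols belonged to the nested Ugt1a locus, and in the other large Ugt cluster 9 of 9 were Inactive. Sult symbols were Inactive in 8 of 8 in the large cluster, 7 of 7 in small ones and 4 of 6 lying alone, and Gst symbols in 2 of 7, 1 of 9 and 0 of 4.

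Several whole clusters had no active member. None of 11 symbols was active in the Cyp4 cluster at chr4:114778928-115320322, none of 9 in the Ugt2 cluster at chr5:87318792-87919896, and none of 8 in the Sult2a cluster at chr7:14209341-15078290. In the Cyp2c cluster at chr19:39081509-40261823, which spans 1180 kb, 1 of 14 was active, and in the Cyp3a cluster at chr5:146106148-146924861 it was 1 of 8. In the Gstm cluster at chr3:107698739-107847812, 5 of 7 symbols were active, and Gstm6 and Gstm7 among them were at 0.01. The other 2 were Inactive (28.6%), near the 31.3% of all symbols. Close copies leave fewer unique bases, and how far this lowered the number called active in clusters was not tested.

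Promoters of these genes were mostly poor in CG dinucleotides. A window of 500 bases to either side of the annotated start was called CpG-rich where CG was over 0.6 of the number expected from base composition and GC over 50%. By this rule 13 of 159 members (8.18%) were CpG-rich, against 50.6% of all 18728 gene symbols with such a window. Among active members it was 10 of 52 (19.2%) and among Inactive members 3 of 107 (2.80%), against 64.4% and 17.2% of all active and all Inactive symbols. The median ratio of observed to expected CG was 0.290 in active members, 0.144 in Inactive members and 0.620 in all symbols.

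Activity went with CpG content only in part. Of the 13 CpG-rich members 3 were Inactive (23.1%), namely Cyp24a1, Cyp2r1 and Sult4a1, against 9.94% of all CpG-rich symbols. Of the 146 others 104 were Inactive (71.2%), against 49.1% of all CpG-poor symbols. The 10 CpG-rich active genes were Cyp20a1, Gsto1, Gstz1, Cyp39a1, Cyp2u1, Cyp4v3, Cyp26a1, Cyp46a1, Cyp4f41-ps and Gsto2, with a median of 0.17 RPKmM, while that of all CpG-rich active symbols was 1.22. Of the 5 most active genes, Cyp20a1 was CpG-rich with a ratio of 0.747, while Gstp1, Cyp1b1, Gsta4 and Gstm1 had ratios of 0.477, 0.485, 0.505 and 0.551, below the rule's limit. Cyp4f16, at 0.82 RPKmM, had a ratio of 0.0968.

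**Figure D5:**
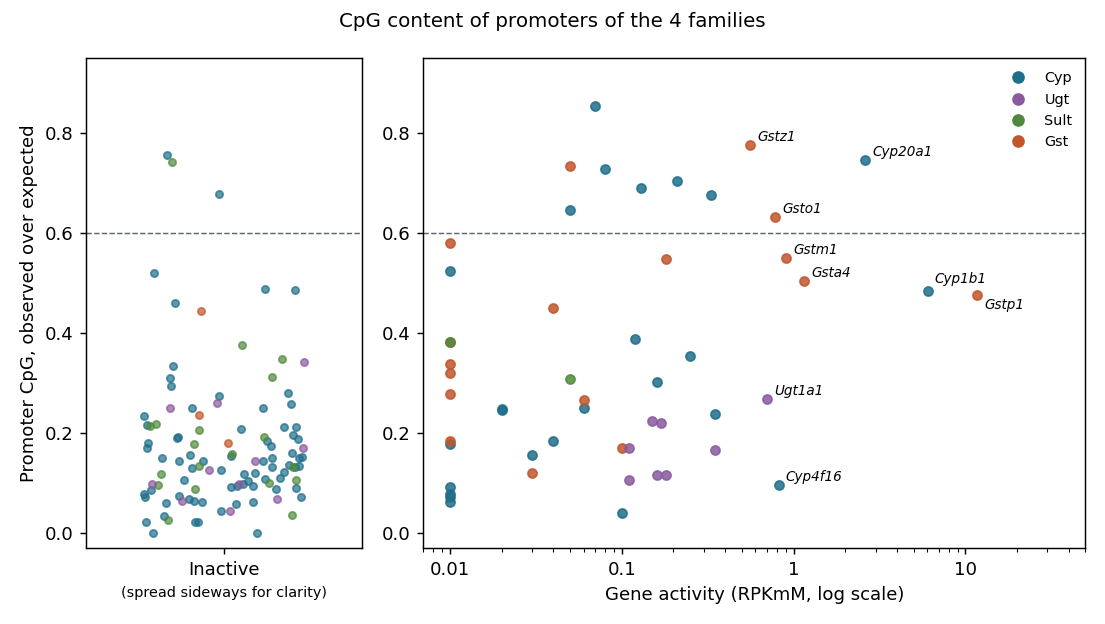
Each point is a gene symbol of the 4 families, with the ratio of observed to expected CG within 500 bases of its annotated start on the vertical axis; Inactive symbols are on the left and active ones on the right by activity in RPKmM on a log axis, and the dashed line marks 0.6. Only 3 Inactive symbols lie above the line, and Gstp1 (0.477) and Cyp1b1 (0.485) lie below it.

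Some members lay just downstream of another transcribed gene. A gene on the same strand that ended within 10 kb upstream and was active was found for 12 of 52 active members (23.1%) and 6 of 107 Inactive members (5.61%), and for 18.2% and 5.70% of all active and Inactive symbols. Upstream genes without a value in the table were not counted as active, among them Gstp2, which ended 2.37 kb upstream of Gstp1, and Gm12498, 0.321 kb upstream of Gstm1. Cyp20a1, among the most active members at 2.61 RPKmM, began 4.995 kb after Nbeal1 at 1.21, and Cyp4f16 at 0.82 began 7.664 kb after Cyp4f17 at 0.25. Others were low. Gsto2 at 0.05 RPKmM began 0.755 kb after Gsto1 at 0.78, Cyp27b1 at 0.02 began 1.885 kb after Mettl1 at 0.6, and Cyp26c1 at 0.12 began 2.336 kb after Exoc6 at 0.25. Cyp26a1 in turn began 4.41 kb after Cyp26c1. Cyp4v3 also overlaps Klkb1 on the same strand. The part of polymerases that had passed the end of the upstream gene in these values was not tested.

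Gene length was also compared. The annotated span had a median of 17.2 kb in active and 20.6 kb in Inactive members, and of 23.7 kb and 14.5 kb in all active and all Inactive symbols.

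Genes of the same pathways whose symbols the rule does not take were active about as often as entries in general. They include relatives of the families, such as Cyp51 and Ugt8a. Of 98 entries of 70 symbols for electron donors, cofactor supply, regulators, other detoxifying enzymes and transporters, 23 were Inactive (23.5%), near the 29.8% of all entries, and the median of active entries was 0.74 RPKmM, near the 0.87 of all active entries. None of 8 entries for electron donors was Inactive, with Cyb5r3 at 5.17, the P450 reductase gene Por at 2.52, Cyb5b at 2.44 and Fdxr, which serves mitochondrial P450s, at 1.89. None of 11 entries for cofactor supply was Inactive. Ugdh, which makes UDP-glucuronic acid, was at 11.44 RPKmM, and Gclc, the catalytic subunit of the limiting enzyme of glutathione synthesis, at 2.11.

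Of 38 regulator entries 13 were Inactive (34.2%), near the 29.8% of all entries. Hnf4a, Foxa1 and Foxa2, transcription factors of liver, Nr1i3, the constitutive androstane receptor, Nr1h4, the bile acid receptor, and Nr5a1, a regulator of steroid-producing cells, were Inactive. Cebpa, a further factor of liver and fat, was active at 0.26 and 0.29 in its 2 entries. Nr1i2, the pregnane X receptor, was called active but listed at 0 after rounding. The oxidative stress factor Nfe2l2, a regulator of Gst genes, was at 5.45 and 2.49 in its 2 entries and its inhibitor Keap1 at 5.09. The site bound by such factors, TGACNNNGC, occurred within 1000 bases upstream of 38 of 159 members (23.9%), against 30.5% of all symbols.

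Other enzymes were Inactive in 8 of 31 entries (25.8%), near the 29.8% of all entries. Their median of active entries was 0.43 RPKmM, against 0.87 for all active entries. Cyp51, a P450 of cholesterol synthesis whose symbol lacks a subfamily letter, was at 4.26, and the membrane-bound glutathione transferase Mgst3 at 2.13. Of 10 transporter entries 2 were Inactive (20.0%), against 29.8% of all entries, and Abcc1, which exports glutathione conjugates, was at 1.48.

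The label of the cells was set beside marker genes. All 5 myoblast markers were active, with Des at 72.45, Chrna1 at 15.62, Cdh15 at 8.08, Myf5 at 5.03 and Myod1 at 2.39 RPKmM. Of 8 entries of hepatocyte markers 6 were Inactive, Alb among them, and the others were Ttr at 0.02 and Apob at 0.01. Markers of enterocytes (3 of 4 entries), steroid-producing cells (4 of 5) and leukocytes (4 of 5) were also mostly Inactive, at most 0.13 for Star. Of 5 entries of fibroblast markers 1, Thy1, was Inactive, and Col1a2 was at 28.94. The part of other cells in the values of the 4 families was not tested.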

How the data were processed

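The authors made 2 GRO-seq libraries of C2C12 myoblasts. According to their methods and the submitters' processing notes (CASAVA 1.8, Bowtie2), reads were mapped to mm9, reads that failed were trimmed and mapped again, uniquely mapped reads were kept, reads at rRNA and tRNA repeats were removed, and both libraries were pooled. The authors deposited gene activity in RPKmM, an RPKM over mappable bases of the sense gene body from 1 kb after the start, and the word Inactive where a Poisson comparison with gene deserts did not pass. Values are rounded to 2 decimals. Because the column mixes numbers and words, the automatic check did not test its unit. Unique mapping lowers the count in close copies, and pooling hides the spread between libraries, so no test that needs this spread could be made. A counting interval for each entry was not computed.

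Entries were counted as active or Inactive as deposited, and medians are over active entries. Subfamilies were read from symbols and grouped by known role. Gene positions and sequences came from GENCODE vM1 and the genome of the same build (NCBIM37), matched by symbol for 159 of 162 members (98.1%), 7 of them through a synonym, and for 18738 of 20128 symbols of the table. The positions of the deposited RefSeq entries may differ from these. Identity of coding sequences was taken from global alignment with edlib 1.3.9.post1. Calculations used Python 3.11.15, numpy 2.4.6, scipy 1.17.1 and matplotlib 3.10.9 and were tested on simulated data. The members, the gene lists and the markers were chosen with earlier results of these data known. Any active member could be named, those at an activity of at least 1 and those with several differing entries in full, together with textbook Inactive members; Nbeal1, Gm12498, Mettl1, Exoc6, Klkb1 and other neighbours or inactive members were named after their values were seen. Alternatives were 1 entry per symbol, protein-coding entries only, entries listed at 0 or below 0.05 taken as Inactive, genes free of sense overlap, geometric means with a pseudocount of 0.01 or 0.001, and only active entries of at least 0.01.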

Additional observations from a re-analysis of the deposited data

How the results depend on the processing

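The share of Inactive members depended most on how low activities were treated. With active entries below 0.05 counted as Inactive, it rose from 67.6% to 79.8% for all members, from 75.0% to 86.1% for Cyp and from 17.4% to 52.2% for Gst, against a rise from 29.8% to 39.7% for all entries, so that Gst went from below to above all entries, while Ugt remained at 60.0% and Sult came to 95.5%. The Ugt share rose from 60.0% to 100% with entries that share no sense sequence with another gene (11 entries) and to 100% without the nested Ugt1a entries (12 entries), an alternative chosen after seeing the data that gave 70.9% for all members. The other alternatives left the shares inside the 95% binomial interval of the main value, used here only as a yardstick since entries are not independent, with 67.3% to 73.3% for all members. The median of active members ranged from 0.055 without sense overlap to 0.0975 as a geometric mean with a pseudocount of 0.01, and the number at an activity of at least 1 was 4 under each alternative tried. No paired analysis was possible because the activity table analysed here holds 1 value per entry pooled over both libraries, and for the same reason neither library could be left out.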
